A study of Mus musculus with 30 samples.

Results

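The change of the Kdm5c siRNA effect between 24 and 48 h after transfection was measured in 3T3-L1 cells, a mouse preadipocyte line. Cells not yet confluent were transfected 3 days before the planned start of differentiation with 50 nM of a Kdm5c siRNA or of a non-targeting scramble siRNA, both with Lipofectamine RNAiMAX. The groups were Kdm5c siRNA and scramble at 24 h (day −2), and Kdm5c siRNA and scramble at 48 h (day −1), with 5 RNA-seq libraries each, 20 of the 30 libraries in the study. The remaining 10 libraries, Kdm5c siRNA and scramble at 72 h (day 0), take no part in the difference and serve as separate material. All cells are of 1 line and all were transfected, so no group is untreated, and the labels give 1 siRNA product against the target. The labels do not say whether the 5 libraries of a group came from separate cultures, so p-values here measure only how far these libraries spread, and that spread may be technical.

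The quantity followed is an interaction: the log2 fold change of Kdm5c siRNA over scramble at 48 h, minus the same fold change at 24 h. A positive value means that the siRNA effect was higher at 48 h than at 24 h, and a negative value that it was lower. Kdm5c is an X-linked Jumonji demethylase that removes methyl groups from lysine 4 of histone H3, a mark of active promoters and enhancers. An siRNA lowers its target mRNA within hours. The protein and the histone mark follow later, and transcripts further along can change later still, while transcripts that an siRNA hits by partial pairing tend to move with the target. Preadipocytes in these days reach confluence and leave the cell cycle, before hormones start their conversion to fat cells.

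Libraries held 25217905 to 33725717 reads, and values below are CPM, read counts scaled to a common library size, unless called fold changes. The preadipocyte genes Pdgfra (111 to 320 CPM over the 20 libraries) and Dlk1 (1216 to 2033 CPM) were expressed, while the fat cell genes Adipoq (0 to 0.159 CPM) and Lep (0 to 0.0322 CPM) were at or near 0. Not all fat cell genes were: Fabp4 had 9.73 to 27.7 CPM, and Lpl, given below, had more. Cd34, another preadipocyte marker, did not pass 1.07 CPM. The 11 epithelial markers summed to at most 1.03 CPM, and 11 endothelial markers apart from Cd93 to 2.51 to 3.55 CPM over the 4 groups. With Cd93, the endothelial markers summed to 17.8 to 20.2 CPM with Kdm5c siRNA and 12.7 to 14.2 CPM in scramble at 24 h, and to 12.6 to 14.15 CPM with Kdm5c siRNA and 7.58 to 9.745 CPM in scramble at 48 h. Of the 3 endothelial markers tested, Cd93 was called higher with Kdm5c siRNA at both times and Kdr at 48 h, while 0 differed between the times, and the part of such cells in the results was not tested. Of 12 macrophage markers, 7 stayed under 1 CPM in all 20 libraries. Skeletal muscle markers summed to 33.9 to 36.8 CPM with Kdm5c siRNA and 32.7 to 36.8 CPM in scramble at 24 h, and to 6.70 to 8.35 CPM with Kdm5c siRNA and 6.66 to 8.40 CPM in scramble at 48 h.

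The scramble libraries at 48 h fell into sets that stood apart. After their group mean was removed, libraries 1, 2 and 3 correlated with each other, and 4 with 5, at −0.10 to 0.13 across genes, whereas every pair between those sets lay at −0.47 to −0.36. Removing the mean of 5 libraries by itself pushes such correlations below 0. The split was also picked from these values, so part of the contrast is built in. Such values are not given for the other groups, and whether this group is less even than those was not tested. Neither set can be preferred from the labels. The differences were therefore fitted with all of them, without libraries 1, 2 and 3, and without libraries 4 and 5, a comparison added after the data were seen, and calls that one of these fits lost are named beside the gene or its list. The sets were picked by this spread, so leaving one out removes part of it and can add calls. Without 1, 2 and 3 only 4 and 5 remain, so a call can be lost through fewer libraries or a changed value. Counts of calls in these fits are a description, not a test of stability.

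Kdm5c itself stayed low at both times. It had 25.8, 25.8, 26.7, 25.9 and 23.3 CPM in the Kdm5c siRNA libraries at 24 h, against 156, 160, 158, 157 and 155 CPM in scramble. At 48 h it had 35.6, 37.9, 39.3, 35.4 and 29.9 CPM with Kdm5c siRNA, against 187, 194, 189, 187 and 188 CPM in scramble. No library overlapped between the groups at either time. The transcript left was 16.2% ± 0.82 of scramble at 24 h, 18.9% ± 1.89 at 48 h and 25.2% ± 1.12 at 72 h (SD, n = 5). The effect was weaker at 48 h by 0.21 log2 (SE 0.06, 95% interval 0.09 to 0.33, edgeR adjusted p = 0.0347). This call was held in 9 of 20 fits that each left out 1 library, with values of 0.17 to 0.27, and was lost without scramble libraries 1, 2 and 3 (0.22, adjusted p = 0.122).

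Across the transcriptome, the siRNA effect differed between the times for 435 of 12016 genes tested, or 3.62%. It was higher at 48 h for 263 genes (2.19%) and lower for 172 genes (1.43%). For comparison, 23% of the genes were called between Kdm5c siRNA and scramble at 24 h and 35.5% at 48 h, so most genes called at one time gave no detectable difference between the times. Of 2356 genes called only at 48 h, 245 (10.4%) had a difference of effects that passed its own test, and of 853 genes called only at 24 h, 51 (5.98%) did. Most differences were small: the median size among the 435 genes was 0.21 log2, 25 genes changed by more than 1.5-fold (21 higher, 4 lower) and 1 gene, H19, by more than 2-fold. The median over all genes tested was 0.01. In bulk RNA, fewer cells of a kind and less RNA per cell cannot be told apart.

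**Figure D1:**
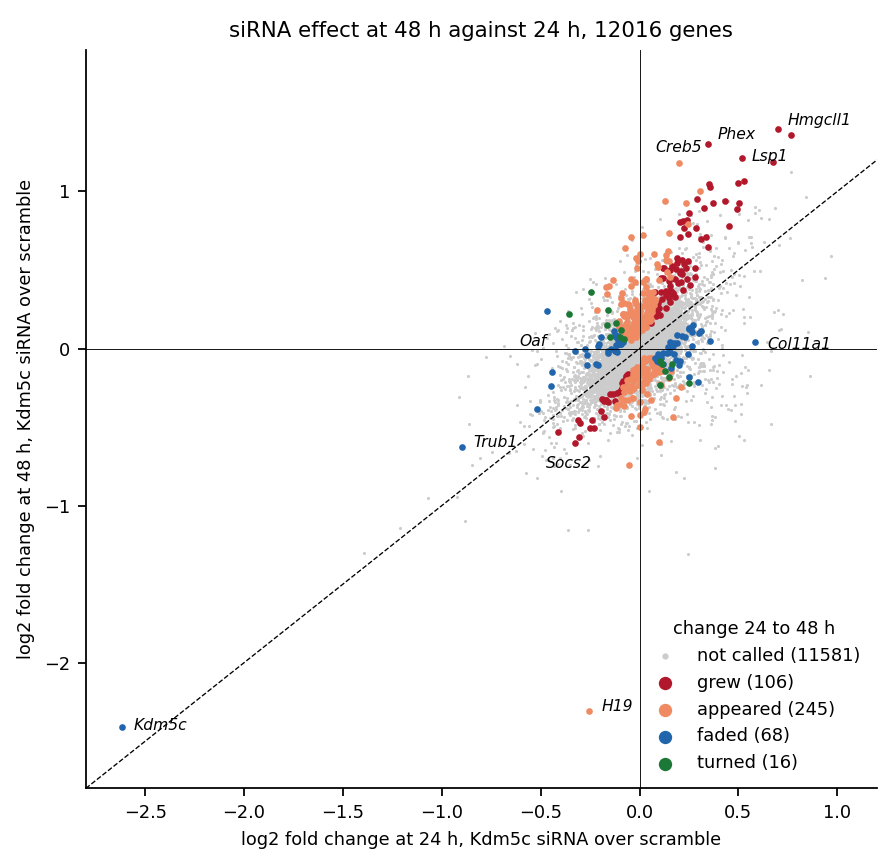
Each point is 1 of 12016 genes, placed by its log2 fold change of Kdm5c siRNA over scramble at 24 h (x axis) and at 48 h (y axis). Colours mark the 435 genes whose 2 effects differed (adjusted p under 0.05), by class, and the dashed line marks equal effects. Kdm5c lies just above the line at the lower left, and H19 stands alone far below it.

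The 435 genes fell into 4 classes by their calls at the single times. The effect grew, being called at both times in the same direction and larger at 48 h, for 106 genes (77 higher and 29 lower). It appeared, being called at 48 h only, for 245 genes (145 higher and 100 lower). It faded for 68 genes, 36 higher and 32 lower at 24 h, and 51 of them were no longer called at 48 h. It turned, called in opposite directions at the 2 times, for 16 genes (9 higher and 7 lower at 48 h). Without scramble libraries 1, 2 and 3 at 48 h, 138 genes were called higher and 52 lower, and 158 of the 435 genes (36.3%) were among them. Without libraries 4 and 5, 517 were called higher and 356 lower, including 393 of the 435 (90.3%). None of the 435 genes changed the sign of its difference in either fit.

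The libraries at 72 h give the later course. Their levels do not enter the difference, but they enter the shared estimate of spread behind the calls. With only the 20 libraries of the contrast 503 genes were called, 409 of them among the 435, with 115 grew, 283 appeared, 78 faded and 23 turned. Of the 77 genes whose effect grew upward, 74 were called higher at 72 h, against 19.2% of all genes, with a median log2 fold change of 0.21 at 24 h, 0.50 at 48 h and 0.50 at 72 h. Of the 29 that grew downward, 28 were called lower at 72 h, against 15.7% of all genes, and the medians were −0.16, −0.32 and −0.21. Genes that grew were called in the same direction at both earlier times, so shares above those of all genes were likely beforehand. Genes called at both times without a difference of effects were not compared. Of the genes whose effect appeared, 121 of 145 were called higher and 75 of 100 lower at 72 h. Faded genes had no common direction at 72 h. Of the 36 that were higher at 24 h, 10 were called higher and 8 lower at 72 h. Of the 32 that were lower at 24 h, 4 were called lower and 10 higher at 72 h. Of the turned genes, 7 of 9 were higher and 6 of 7 lower at 72 h, in the direction they had at 48 h. Appeared and turned genes were chosen for a called effect at 48 h, and faded genes for a smaller or uncalled one. The contrast between these classes at 72 h was therefore likely beforehand.

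**Figure D2:**
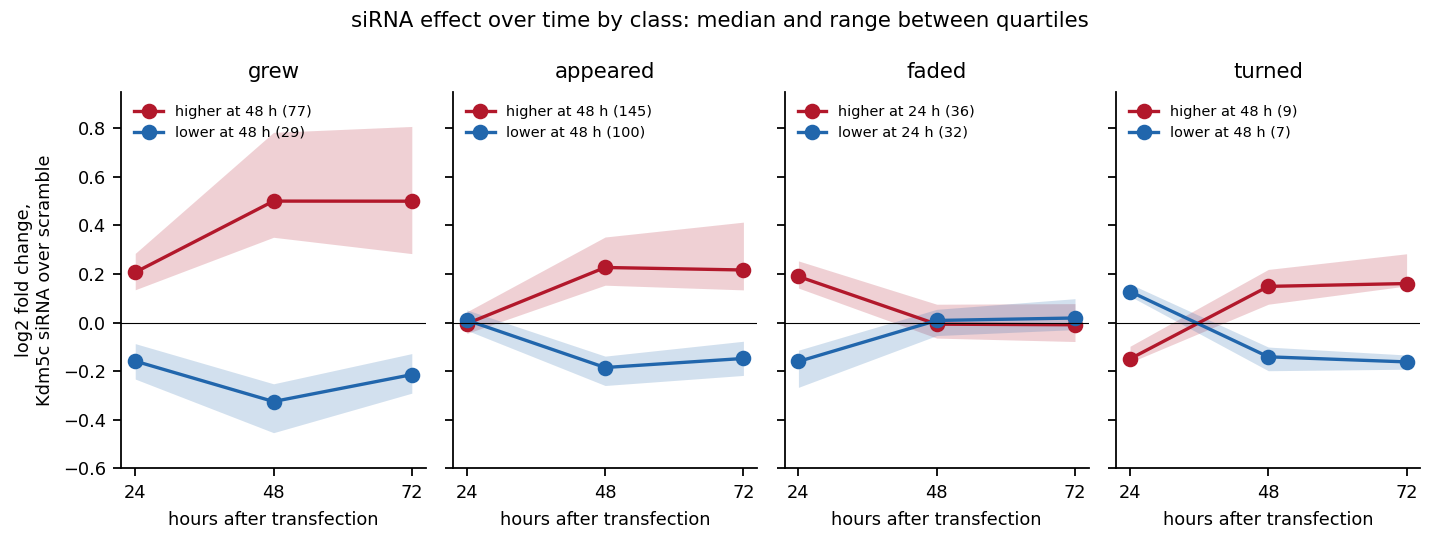
Median log2 fold change of Kdm5c siRNA over scramble (y axis) at 24, 48 and 72 h (x axis) for each class, with the range between the quartiles shaded. The classes were chosen on the 24 and 48 h values, and the 72 h levels enter the choice only through the shared estimate of spread; at 72 h the effects that grew or appeared had medians of 0.50, −0.21, 0.22 and −0.15.

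The 4 largest effects that grew upward were those of Phex, Hmgcll1, Mcam and Lsp1. Phex, a membrane endopeptidase of bone cells whose loss causes phosphate wasting, lies on chromosome X from 157162075 to 157415312 (minus strand, GRCm38). It had 5.70, 6.37, 6.08, 7.07 and 5.21 CPM with Kdm5c siRNA at 24 h, against 5.32, 5.204, 4.67, 4.23 and 4.58 CPM in scramble. At 48 h the values were 24.9, 27.4, 25.4, 24.5 and 25.7 CPM with Kdm5c siRNA, against 10.3, 9.04, 10.7, 11.5 and 10.4 CPM in scramble. The groups overlapped at 24 h and were far apart at 48 h, since the transcript was more abundant at 48 h in both and more so with Kdm5c siRNA. The log2 effect was 0.35 at 24 h and 1.30 at 48 h, a difference of 0.96 (SE 0.11, adjusted p = 6.83e-07), and 1.67 at 72 h.

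Lsp1, an F-actin binding protein best known from leukocytes, had 45.9, 44.4, 47.4, 43.1 and 48.1 CPM with Kdm5c siRNA at 24 h, against 30.9, 31.7, 31.9, 32.5 and 33.1 CPM in scramble. The 48 h values were 101, 91.5, 98.2, 101 and 96.0 CPM with Kdm5c siRNA, against 41.6, 42.8, 44.7, 41.3 and 40.4 CPM in scramble. The groups did not overlap at either time, and the effect of 0.52 log2 at 24 h was 1.21 at 48 h (difference 0.69, SE 0.05, adjusted p = 1.36e-12). Lsp1 lies on chromosome 7 from 142460809 to 142494867, near H19. Mcam, an adhesion molecule of vessel walls and mesenchymal cells, averaged 21.9 ± 1.30 CPM with Kdm5c siRNA and 17.2 ± 1.09 CPM in scramble at 24 h, and 18.9 ± 1.58 CPM with Kdm5c siRNA and 9.18 ± 0.47 CPM in scramble at 48 h (SD, n = 5 each). Here the scramble level was the one that differed most between the times, and the effect grew by 0.70 log2 (adjusted p = 1.49e-05). Hmgcll1, a lyase of leucine and ketone metabolism, grew by the same 0.70 log2 with all libraries (adjusted p = 0.0175), by 0.91 without scramble libraries 1, 2 and 3, and by 0.57 without 4 and 5, where it was not called (adjusted p = 0.0529).

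Effects that grew downward were all small, −0.28 to −0.10 log2. The largest were those of Mfsd12, a lysosomal cysteine transporter (−0.28), Stat5a, the transcription factor below the growth hormone and prolactin receptors (−0.28), Rpia, an isomerase of the pentose phosphate pathway (−0.26), and Lrp8, a receptor for apolipoprotein E and reelin (−0.26). Rpia averaged 16.6 ± 0.66 CPM with Kdm5c siRNA and 20.5 ± 1.66 CPM in scramble at 24 h, and 13.8 ± 0.24 CPM with Kdm5c siRNA and 20.4 ± 0.95 CPM in scramble at 48 h, with no overlap at either time. Lrp8 and Rpia were called in every fit that left out 1 library. Mfsd12 was called in 13 and Stat5a in 12 of those 20 fits, and neither was called without scramble libraries 1, 2 and 3 (adjusted p = 0.14 and 0.254).

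H19 had the largest change of any gene. It is a maternally expressed, imprinted long non-coding RNA, on chromosome 7 from 142575529 to 142578143 (minus strand). At 24 h it had 2.20, 2.41, 1.98, 2.54 and 2.85 CPM with Kdm5c siRNA, against 3.42, 2.68, 2.45, 3.09 and 2.68 CPM in scramble, and the groups overlapped. The values at 48 h were 0.28, 0.45, 0.49, 0.68 and 0.44 CPM with Kdm5c siRNA, against 2.72, 2.28, 2.82, 2.34 and 1.66 CPM in scramble, with no overlap. A count of 0 would allow up to 0.089 to 0.119 CPM by library, so the transcript was still detected in all 5 libraries. The log2 effect was −0.25 at 24 h (adjusted p = 0.128) and −2.31 at 48 h, a difference of −2.05 (SE 0.22, adjusted p = 4.19e-08), and it was −2.33 at 72 h. The difference was −1.82 without scramble libraries 1, 2 and 3 and −2.19 without 4 and 5, and it was called in every fit that left out 1 library. Among 15 imprinted genes measured, Peg10 was the only other one called, and the list's median difference was −0.04, against 0.01 over all genes tested.

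Among effects that appeared upward, Creb5, a leucine zipper factor that binds cAMP and AP-1 elements, had 8.01, 8.01, 8.94, 7.82 and 6.94 CPM with Kdm5c siRNA at 48 h, against 3.29, 3.54, 2.69, 3.89 and 4.12 CPM in scramble. At 24 h it averaged 3.61 ± 0.31 CPM with Kdm5c siRNA and 3.16 ± 0.30 CPM in scramble (SD, n = 5 each), with overlapping groups. The difference of effects was 0.98 log2 (SE 0.14, adjusted p = 1.73e-05). Olr1, a scavenger receptor for oxidised lipoprotein, appeared by 0.81 log2, Cd53, a tetraspanin of leukocytes, by 0.71, and Lrrc15, a membrane protein of fibroblasts under TGF-beta, by 0.70. Olr1 had a scramble level of 4.40 ± 0.36 CPM at 24 h and of 3.21 ± 0.37 CPM at 48 h, while Lrrc15 had higher levels at 48 h in both groups (15.4 ± 1.59 CPM with Kdm5c siRNA and 9.30 ± 0.56 CPM in scramble, and 2.13 ± 0.27 CPM with Kdm5c siRNA and 2.11 ± 0.26 CPM in scramble at 24 h). The call of Cd53 was lost without scramble libraries 1, 2 and 3 (0.67, adjusted p = 0.121), and in 4 of the 20 fits without 1 library, those leaving out scramble library 1 or 2 or Kdm5c siRNA library 3 or 4 at 24 h (0.64 to 0.65).

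**Figure D3:**
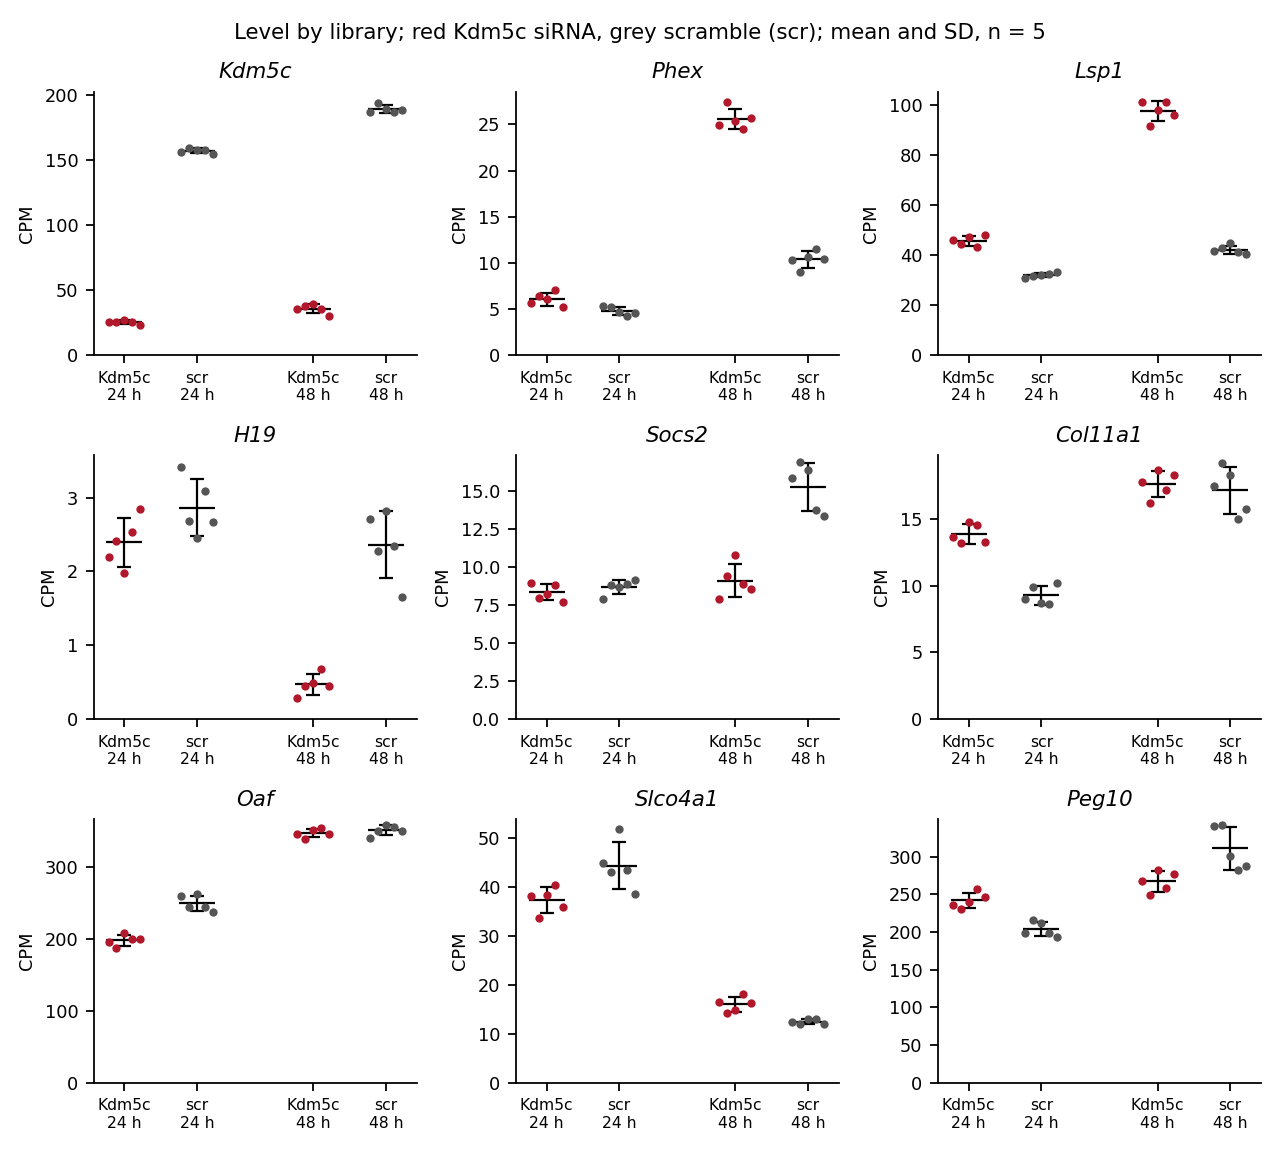
CPM of 9 genes (y axis, from 0) in each of 20 libraries, by group and time, with the mean and SD of 5 libraries. Kdm5c is low in every Kdm5c siRNA library, Phex and Lsp1 separate further at 48 h, H19 and Socs2 separate only at 48 h, Col11a1 and Oaf separate at 24 h only, and Slco4a1 and Peg10 change sides.

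Stat5a and 5 further genes around growth hormone signalling were grouped after their values were seen, so they are given gene by gene and nothing is said of the pathway. The calls of Stat5a, Socs2, Cish and Ghr were all lost without scramble libraries 1, 2 and 3. The growth hormone receptor activates STAT5 through the kinase JAK2, and STAT5 induces Cish and Socs2, whose proteins restrain the receptor. Socs2 had 8.92, 7.97, 8.24, 8.79 and 7.72 CPM with Kdm5c siRNA at 24 h, against 7.88, 8.80, 8.70, 8.84 and 9.12 CPM in scramble. At 48 h it had 7.85, 9.36, 10.8, 8.89 and 8.57 CPM with Kdm5c siRNA, against 15.8, 16.9, 16.3, 13.8 and 13.3 CPM in scramble. The level thus differed between the times in scramble and hardly with Kdm5c siRNA, and the difference of effects was −0.69 log2 (SE 0.13, adjusted p = 0.00131). Scramble libraries 4 and 5 were the lowest of their group, and without libraries 1, 2 and 3 the value was −0.52 (adjusted p = 0.0507).

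Cish averaged 3.05 ± 0.24 CPM with Kdm5c siRNA and 2.85 ± 0.28 CPM in scramble at 24 h, and 4.83 ± 0.58 CPM with Kdm5c siRNA and 7.32 ± 0.81 CPM in scramble at 48 h, without overlap at 48 h (difference −0.70, SE 0.16, adjusted p = 0.00663; −0.62 and adjusted p = 0.055 without scramble libraries 1, 2 and 3). The receptor Ghr averaged 105 ± 3.29 CPM with Kdm5c siRNA and 104 ± 5.77 CPM in scramble at 24 h, and 109 ± 3.77 CPM with Kdm5c siRNA and 142 ± 7.50 CPM in scramble at 48 h (difference −0.42, adjusted p = 0.00157; −0.34 and adjusted p = 0.0591 without scramble libraries 1, 2 and 3). Stat5b, the paralogue of Stat5a, was not called (−0.17, adjusted p = 0.0799). Bcl6, a transcriptional repressor, went the other way: at 48 h it had 23.4, 23.9, 18.85, 23 and 25.2 CPM with Kdm5c siRNA, against 18.3, 17.9, 16.2, 18.95 and 18.3 CPM in scramble, and the groups overlapped by 1 library of each. Its effect was 0.34 higher at 48 h than at 24 h (adjusted p = 0.0242), and its call was lost without scramble libraries 1, 2 and 3 (0.28, adjusted p = 0.198), without scramble library 3 or without Kdm5c siRNA library 5 at 48 h (0.30 to 0.31).

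STAT factors bind a palindrome, TTCNNNGAA, called GAS, so the promoters of Cish and Bcl6 are shown with each match in capitals, from RefSeq (GRCm38.p6), 5′ to 3′ on the gene's strand. The motif was chosen after the values were seen. It occurs in 738 of the 9075 tested genes with a promoter listed (8.13%). Each start site listed was read over 300 bases, and a match at any start of a gene counted. Among such genes it was in 7 of 79 whose effect appeared downward (8.86%), 3 of 114 that appeared upward (2.63%) and 1 of 22 that grew downward (4.55%). The promoters shown were picked for their matches. The Cish stretch, chr9:107296509-107296688 on the plus strand, holds 2 matches, and the Bcl6 stretch, chr16:23981254-23981463 on the minus strand and at 1 of 2 start sites listed, holds 3. A match is a run of letters and not a measured binding site.
Cish: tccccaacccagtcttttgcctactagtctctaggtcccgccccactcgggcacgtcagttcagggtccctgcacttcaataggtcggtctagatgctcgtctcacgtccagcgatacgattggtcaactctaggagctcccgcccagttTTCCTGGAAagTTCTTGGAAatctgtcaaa
Bcl6: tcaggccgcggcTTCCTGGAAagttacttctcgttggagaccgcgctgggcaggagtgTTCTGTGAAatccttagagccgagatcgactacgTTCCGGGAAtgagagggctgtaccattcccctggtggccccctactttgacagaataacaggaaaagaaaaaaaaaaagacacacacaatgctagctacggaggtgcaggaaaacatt

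Effects that faded had a median of 0.19 log2 at 24 h where they had been higher and −0.16 where they had been lower. Col11a1, a fibrillar collagen chain of cartilage, was the largest of those that had been higher. It had 13.7, 13.2, 14.8, 14.6 and 13.3 CPM with Kdm5c siRNA at 24 h, against 8.998, 9.88, 8.74, 8.63 and 10.2 CPM in scramble. The values at 48 h were 17.8, 16.2, 18.7, 17.2 and 18.3 CPM with Kdm5c siRNA, against 17.5, 19.2, 18.3, 15.04 and 15.8 CPM in scramble, and the groups overlapped. The log2 effect was 0.58 at 24 h and 0.04 at 48 h (difference −0.54, SE 0.14, adjusted p = 0.0328), and −0.53 at 72 h, called in the opposite direction. Col11a1 was called in 10 of 20 fits without 1 library and not without scramble libraries 1, 2 and 3 (−0.39, adjusted p = 0.302).

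Ptx3, a secreted pattern receptor of the pentraxin family, faded by −0.51 log2, Ppargc1a, a coactivator of mitochondrial genes, by −0.43, and Sema3a, a secreted guidance protein, by −0.31. None of these 3 was called without scramble libraries 1, 2 and 3, at −0.31, −0.38 and −0.27 with adjusted p of 0.339, 0.185 and 0.0624. Of the effects that had been lower at 24 h, that of Oaf had the smallest SE among the 4 named genes. Oaf had 195, 188, 208, 200.3 and 199 CPM with Kdm5c siRNA at 24 h, against 259, 244, 262, 244 and 237 CPM in scramble, and 346, 339, 351, 354 and 346 CPM with Kdm5c siRNA at 48 h, against 340, 350, 358, 356 and 350 CPM in scramble. The groups were apart at 24 h and mixed at 48 h, at a level above both earlier groups, and the difference was 0.31 log2 (SE 0.05, adjusted p = 3.41e-04). It was called in every fit that left out 1 library, and without either set of scramble libraries (0.30 and 0.32). At 72 h Oaf was higher with Kdm5c siRNA (0.23). Cytip, a cytohesin-binding protein, faded by 0.71 at group means of 1.74 to 4.22 CPM, Htra1, a secreted serine protease, by 0.29 and Trub1, a pseudouridine synthase, by 0.28, and these 3 calls were lost without scramble libraries 1, 2 and 3 (adjusted p = 0.14, 0.132 and 0.101). In the 20 fits that left out 1 library, Trub1 was called in 19 (not without Kdm5c siRNA library 1 at 48 h, 0.24), Ptx3 in 16, Htra1 in 15 and Ppargc1a in 14, and Sema3a and Cytip in all. DESeq2 did not call Htra1 (adjusted p = 0.0644).

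Genes whose effect turned were lower at 24 h and higher at 48 h, or the reverse. Slco4a1, an organic anion transporter that carries thyroid hormone, averaged 37.2 ± 2.62 CPM with Kdm5c siRNA and 44.3 ± 4.82 CPM in scramble at 24 h, and 15.99 ± 1.47 CPM with Kdm5c siRNA and 12.5 ± 0.54 CPM in scramble at 48 h (SD, n = 5 each). The groups overlapped at 24 h and did not at 48 h. The log2 effect was −0.25 at 24 h and 0.36 at 48 h (difference 0.61, SE 0.10, adjusted p = 2.40e-04), and 1.17 at 72 h. Cdc42bpg, a kinase regulated by CDC42, was lower with Kdm5c siRNA at 24 h (−0.36) and higher at 48 h (0.22), with no overlap at either time (difference 0.58, adjusted p = 0.00129). Peg10, a paternally expressed gene derived from a retrotransposon, had 236, 230.3, 240.2, 257 and 247 CPM with Kdm5c siRNA at 24 h, against 199, 217, 212, 198 and 194 CPM in scramble. At 48 h it had 267, 250, 283, 259 and 278 CPM with Kdm5c siRNA, against 341, 342, 302, 282 and 288 CPM in scramble, where the groups overlapped by scramble library 4. Its difference was −0.47 log2 (SE 0.08, adjusted p = 0.0014). F3, tissue factor, which starts coagulation and also marks a preadipocyte subset that restrains adipogenesis, turned by −0.33 (SE 0.04, adjusted p = 6.06e-07). All 4 genes were called in every fit that left out 1 library and without either set of scramble libraries.

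**Figure D4:**
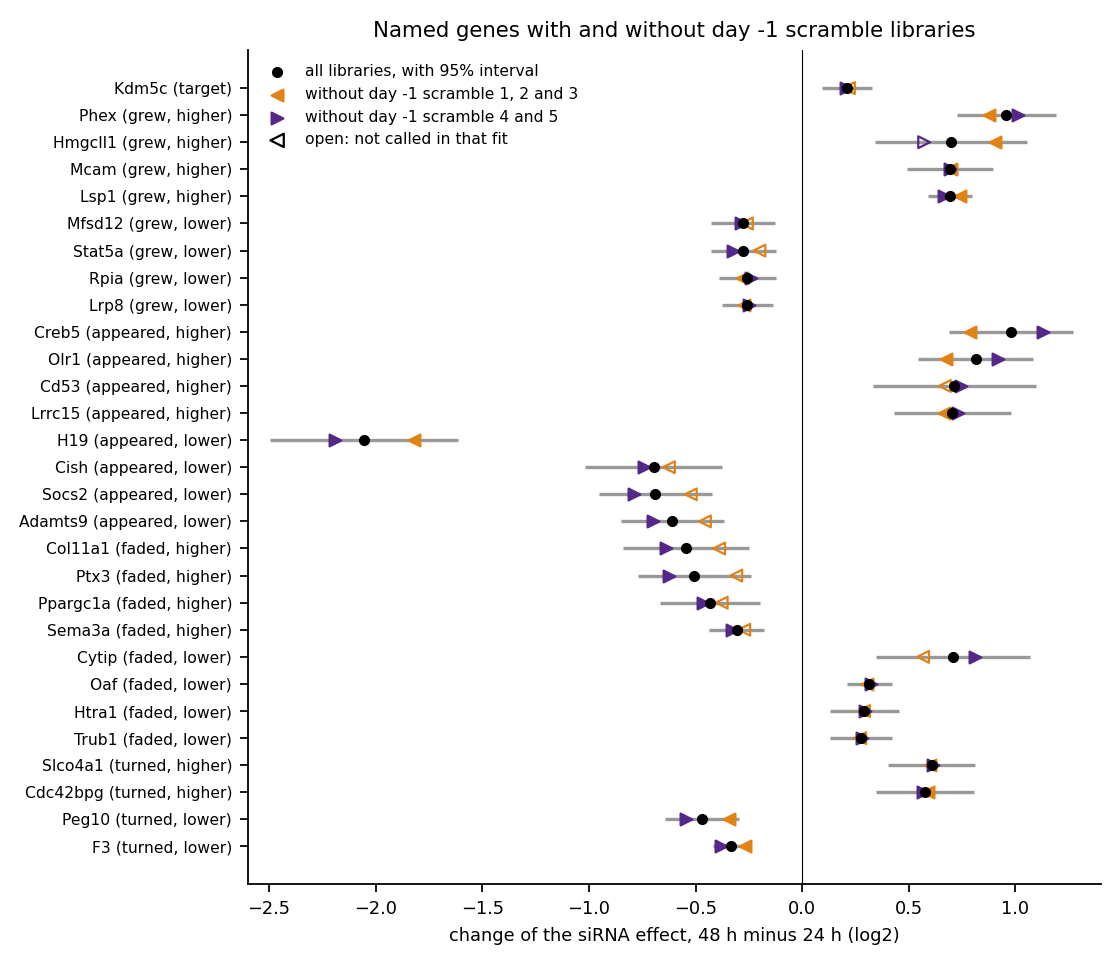
Change of the siRNA effect, 48 h minus 24 h (x axis, log2), for Kdm5c and the 28 genes named by class (y axis). Black points with lines are the values with all libraries and their 95% intervals, and triangles are the values without scramble libraries 1, 2 and 3 or without 4 and 5 at 48 h, open where not called. Every triangle lies on the same side of 0 as its point; 15 of the 28 genes were called without libraries 1, 2 and 3, and 27 without 4 and 5.

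The transcripts lowered most at 24 h stayed lowered at 48 h, and several of those raised most were raised further. The 2 lists used here were picked on the 24 h libraries, which also enter the difference, and are a description. All 8 transcripts lowered most at 24 h were lowered at 48 h too, and 1 of them, Trub1, differed between the times. Calm3, a calmodulin gene, had a log2 effect of −1.39 at 24 h and −1.30 at 48 h (difference 0.09, adjusted p = 0.229), Map4, a microtubule protein, −1.21 and −1.14 (0.07, adjusted p = 0.256), Nrn1, a neurite growth protein, −1.07 and −0.95 (0.12, adjusted p = 0.339), and Arf3, a small GTPase of the Golgi, −0.92 and −0.95 (−0.02, adjusted p = 0.807). For Gem, Dmp1 and Trib2 the differences were −0.21, 0.11 and 0.09. Of the 8 transcripts raised most at 24 h, Ankrd1, Hmgcll1 and Lpin3, a phosphatidate phosphatase, were higher still at 48 h (0.60, 0.70 and 0.51) and Col11a1 faded, while Glipr1 (0.36), Cd93 (0.22), Baalc (0.17) and Ccl9 (0.05) were not called. The median difference was 0.09 for the lowered and 0.29 for the raised list.

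Adhesion, contractile and TGF-beta genes included several whose effect was higher at 48 h. Of 39 integrin and focal adhesion genes measured, 6 were higher and 1 lower, against 2.19% and 1.43% of all genes, with a list median of 0.03. Itga3, an integrin chain for laminins, averaged 97.5 ± 2.7 CPM with Kdm5c siRNA and 78.7 ± 1.49 CPM in scramble at 24 h, and 75.4 ± 3.50 CPM with Kdm5c siRNA and 46.6 ± 3.39 CPM in scramble at 48 h (difference 0.38, SE 0.05, adjusted p = 1.15e-05). Itga5, a fibronectin receptor chain, was higher by 0.18 and Cd44, a hyaluronan receptor, by 0.20 (0.14 and adjusted p = 0.0823 without scramble libraries 1, 2 and 3). Without scramble libraries 1, 2 and 3 the list had 2 higher calls and 0 lower, and without 4 and 5 it had 7 and 1. Of 32 contractile genes, 2 were higher: Actg2, smooth muscle gamma actin, averaged 142 ± 4.36 CPM with Kdm5c siRNA and 117 ± 4.14 CPM in scramble at 24 h, and 48.6 ± 4.48 CPM with Kdm5c siRNA and 25.1 ± 2.73 CPM in scramble at 48 h (0.66, SE 0.07, adjusted p = 2.01e-06), and Tagln, an actin-binding protein, was higher by 0.59. Acta2, smooth muscle alpha actin, was called at each time (0.17 and 0.31), but its difference of 0.14 was not (adjusted p = 0.131). The contractile list's median was 0.03, and it had 3 higher calls without scramble libraries 1, 2 and 3 and 5 without 4 and 5.

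Of 37 TGF-beta and activin genes, 5 were higher and 1 lower (median 0.06), against 2.19% and 1.43% of all genes. These shares also apply to the lists that follow. Without scramble libraries 1, 2 and 3 the counts were 6 and 0, and without 4 and 5 they were 6 and 1. Lists share members: Tagln is counted here as well as among contractile genes, and Bmp1 also among collagen processing genes. Ltbp1, which anchors latent TGF-beta in the matrix, had 410, 411, 415, 413 and 399.9 CPM with Kdm5c siRNA at 24 h, against 374, 386, 379.5, 381 and 385 CPM in scramble, and 325, 307, 316, 315 and 340 CPM with Kdm5c siRNA at 48 h, against 226, 234, 238, 242 and 238 CPM in scramble. The groups were apart at both times, the effect rose by 0.34 (SE 0.04, adjusted p = 4.33e-07), and it was 0.68 at 72 h. Il11, a cytokine of the list, appeared by 0.47, and Bmp1, a procollagen protease, grew by 0.16. Collagen processing genes were 4 higher and 0 lower of 25 (Pcolce2 0.33, Adamts14 0.21), but without scramble libraries 1, 2 and 3 only 1 was called. Collagen chains were 2 higher (Col7a1 0.33, Col8a1 0.23) and 2 lower of 25, with a median of −0.06, and none was called without those libraries. Matrix proteases and their inhibitors were 4 higher and 4 lower of 37, with 3 and 1 without scramble libraries 1, 2 and 3: Timp3, a protease inhibitor bound to matrix, had an effect of 0.24 at 24 h that was −0.03 at 48 h (−0.28), and Adamts7, a protease of cartilage matrix, appeared by 0.41. Matrix glycoproteins and proteoglycans were 4 higher and 2 lower of 45, with a median of −0.004. Among the higher ones, Fbln2, Lamb1 and Ecm1 were so by 0.20, 0.21 and 0.27. The list had 3 higher and 0 lower calls without scramble libraries 1, 2 and 3, and 4 and 6 without 4 and 5.

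YAP and TEAD targets, which respond to cell density and tension, were 4 higher and 2 lower of 32 (median 0.03), against 2.19% and 1.43% of all genes, and 2 and 1 without scramble libraries 1, 2 and 3. Ankrd1, a nuclear ankyrin repeat protein, had 46.5, 45.1, 46.3, 47.2 and 48.6 CPM with Kdm5c siRNA at 24 h, against 27.9, 28.1, 27.9, 27.2 and 27.1 CPM in scramble. The 48 h values were 14.6, 13.5, 11.6, 13.5 and 15.1 CPM with Kdm5c siRNA, against 4.29, 5.12, 4.44, 6.70 and 6.03 CPM in scramble. The level was lower at 48 h in both groups and the groups never overlapped; the difference of effects was 0.60 (SE 0.11, adjusted p = 0.00124), but 0.34 without scramble libraries 1, 2 and 3 (adjusted p = 0.148) and 0.80 without 4 and 5. Tead2, a TEAD factor, was higher by 0.26 and was called without either set. The Ankrd1 promoter, chr19:36119815-36120064 on the minus strand, holds 2 copies of the TEAD motif GGAATG on the strand shown, in capitals. The motif, on either strand and at any listed start, is in 14% of the 9075 genes with a promoter listed. It is in 12 of 60 such genes whose effect grew upward (20%) and in 5 of 22 that grew downward (22.7%). Among genes whose effect appeared, it is in 16 of 114 upward (14%) and 11 of 79 downward (13.9%).
Ankrd1: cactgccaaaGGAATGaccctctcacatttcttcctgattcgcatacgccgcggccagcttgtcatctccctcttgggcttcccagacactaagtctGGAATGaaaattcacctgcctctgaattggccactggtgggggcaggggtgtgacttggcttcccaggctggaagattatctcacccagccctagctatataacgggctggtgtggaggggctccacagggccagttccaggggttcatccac

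**Figure D5:**
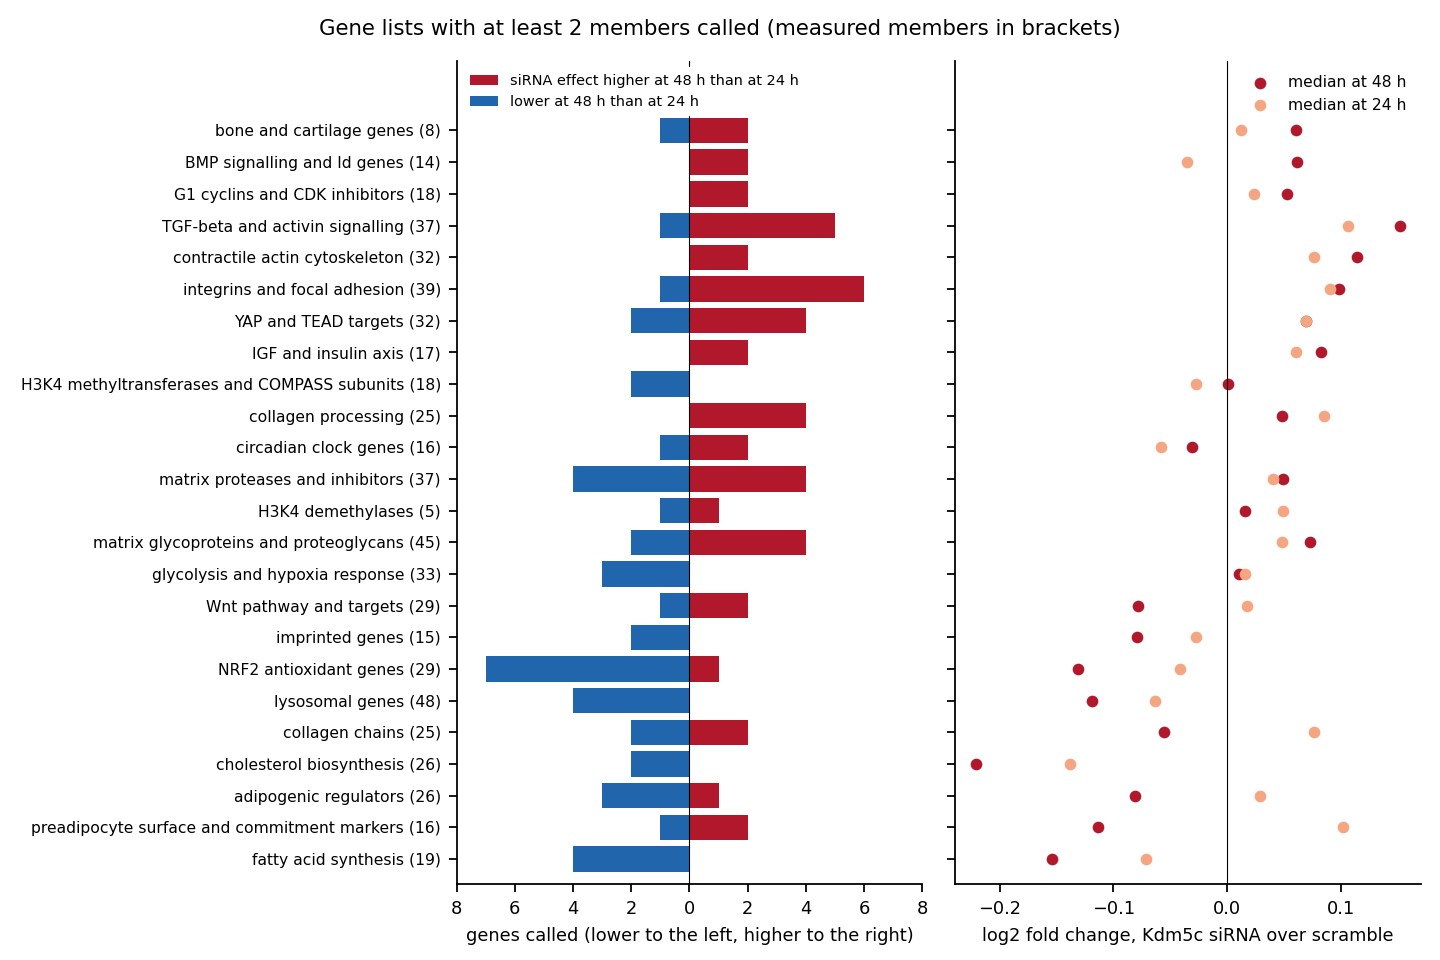
Gene lists with at least 2 called members, with the members measured in brackets (y axis). Left, genes whose siRNA effect was higher (right of 0) or lower (left of 0) at 48 h than at 24 h; right, the list's median log2 fold change of Kdm5c siRNA over scramble at 24 and 48 h. NRF2 genes have 7 lower and 1 higher, integrins 6 higher and 1 lower.

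Several genes of antioxidant defence and of lipid and sugar metabolism had a lower effect at 48 h than at 24 h. NRF2 is the transcription factor that induces enzymes against oxidants and those that make NADPH, and of 29 of its target genes measured 7 were lower and 1, Prdx6 (0.18), higher, against 1.43% and 2.19% of all genes, with a median of −0.04. Nqo1, a quinone reductase, had 27.9, 25.7, 26.8, 26.3 and 27.2 CPM with Kdm5c siRNA at 24 h, against 29.6, 26.6, 27.8, 25.5 and 24.3 CPM in scramble. At 48 h the values were 33.8, 34.3, 35.2, 33.3 and 31.3 CPM with Kdm5c siRNA, against 46.4, 44.4, 46.7, 43.6 and 44.1 CPM in scramble. The groups were mixed at 24 h and apart at 48 h, and the difference was −0.43 (SE 0.06, adjusted p = 3.25e-05), also called without either set of scramble libraries. Gstm1, a glutathione transferase, was lower by −0.27, Srxn1, a sulfiredoxin, by −0.12 and Hmox1, heme oxygenase, by −0.12. The remaining lower members were 3 enzymes of the pentose phosphate pathway, G6pdx (−0.18), Pgd (−0.12) and Tkt (−0.11). With Rpia these were 4 of its enzymes, while Taldo1 had an effect of −0.12 at each time (difference 0.00, 95% interval −0.08 to 0.08); this pathway was looked at after its values were seen. Without scramble libraries 1, 2 and 3 the NRF2 list had 2 lower and 0 higher calls, those of Nqo1 and G6pdx. Gstm1 was then −0.16 (adjusted p = 0.215), Pgd −0.14 (adjusted p = 0.0624) and Tkt −0.10 (adjusted p = 0.142), none called.

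Fatty acid synthesis genes were 0 higher and 4 lower of 19, against 2.19% and 1.43% of all genes, with a median of −0.10. These shares of all genes also apply to the lists that follow. Acaca, acetyl-CoA carboxylase, averaged 95.3 ± 2.24 CPM with Kdm5c siRNA and 102 ± 3.03 CPM in scramble at 24 h, and 101 ± 1.46 CPM with Kdm5c siRNA and 121 ± 2.49 CPM in scramble at 48 h (−0.17, SE 0.03, adjusted p = 9.92e-04). Slc25a1, the mitochondrial citrate carrier, and Scd1, a desaturase, were lower by −0.17 and −0.12. Cholesterol synthesis genes were 0 higher and 2 lower of 26 (Ebp −0.16, Hsd17b7 −0.17; median −0.06), and their median effect was −0.14 at 24 h and −0.22 at 48 h. Without scramble libraries 1, 2 and 3, 1 gene of fatty acid synthesis and 0 of cholesterol synthesis were called, and without 4 and 5, 7 and 9. In the 20 fits that left out 1 library, Acaca was called in all, Slc25a1 in 18, Ebp in 11, Scd1 in 10 and Hsd17b7 in 8. Lpl, the lipoprotein lipase of fat cells, had 205, 218, 202, 213 and 217 CPM with Kdm5c siRNA at 24 h, against 204, 205, 212, 196 and 201 CPM in scramble, and 241, 238, 261, 249 and 252 CPM with Kdm5c siRNA at 48 h, against 331, 331, 322, 281 and 291 CPM in scramble. The groups were apart at 48 h only (−0.38, adjusted p = 0.005; −0.26 and adjusted p = 0.139 without scramble libraries 1, 2 and 3). Glycolysis and hypoxia genes were 0 higher and 3 lower of 33, namely the phosphofructokinase Pfkp (−0.28), the kinase Pfkfb3 (−0.25) and the hexokinase Hk1 (−0.15). Pfkp was called in every fit that left out 1 library, Hk1 in 10 and Pfkfb3 in 5 of the 20, and Hk1 and Pfkfb3 were not called without scramble libraries 1, 2 and 3 (adjusted p = 0.185 and 0.221). Lysosomal genes were 0 higher and 4 lower of 48 (median −0.06), with Atp6v0d1, a proton pump subunit, at −0.16, and none was called without scramble libraries 1, 2 and 3.

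Of the circadian clock genes, 2 of 16 were higher and 1 lower, against 2.19% and 1.43% of all genes, shares that also apply to the lists that follow. The repressor Nr1d1 had 30.9, 29.1, 27.5, 29.4 and 28.8 CPM with Kdm5c siRNA at 24 h, against 29.4, 31.7, 29.8, 32.9 and 32.1 CPM in scramble, and 21.6, 21.7, 21.04, 22.7 and 24.5 CPM with Kdm5c siRNA at 48 h, against 17.7, 17.6, 17.1, 17.4 and 17.9 CPM in scramble. The groups overlapped at 24 h and were apart at 48 h (0.44, SE 0.06, adjusted p = 1.26e-05), and its effect at 72 h was 0.11, not called (adjusted p = 0.07335). Its paralogue Nr1d2 was higher by 0.33 and Clock, an activator of the cycle, lower by −0.13. Clock was called in 14 of 20 fits that left out 1 library and not without scramble libraries 1, 2 and 3 (adjusted p = 0.116), where the list had 3 higher and 0 lower. Among growth genes, the cyclins Ccnd1 (0.29) and Ccnd2 (0.15) were higher, 2 of 18 G1 genes, against 2.19% of all genes. Without scramble libraries 1, 2 and 3 both were still called, Ccnd1 at 0.18, and without 4 and 5 Ccnd1 was 0.37. Ccnd1 averaged 858 ± 9.62 CPM with Kdm5c siRNA and 821 ± 13.9 CPM in scramble at 24 h, and 665 ± 27.8 CPM with Kdm5c siRNA and 519 ± 37.1 CPM in scramble at 48 h. Igfbp6 and Igfbp4, which bind insulin-like growth factors, were higher by 0.59 and 0.35. Preadipocyte surface and commitment markers were 2 higher and 1 lower of 16, with a median of −0.08 and 6 of 16 above 0, against 52.4% of all genes. Ly6c1, a surface protein of mesenchymal progenitors, was higher by 0.60. The adipogenic regulators were 1 higher (Klf5, 0.19) and 3 lower of 26, with a median of −0.08, and none was called without scramble libraries 1, 2 and 3.

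Among enzymes of the histone mark itself, 4 genes were called, Kdm5c included. Of 5 H3K4 demethylases, Kdm5c apart, only Kdm5b was called: its effect of 0.17 at 24 h was 0.02 at 48 h (−0.15, adjusted p = 0.0328; −0.12 and adjusted p = 0.271 without scramble libraries 1, 2 and 3). Of 18 methyltransferases and COMPASS subunits 2 were lower, against 1.43% of all genes, Kmt2c (−0.23, adjusted p = 7.51e-04) and Setd1b (−0.21, adjusted p = 0.00149), and both were called without either set of scramble libraries. Kmt2c averaged 106 ± 4.17 CPM with Kdm5c siRNA and 123 ± 4.18 CPM in scramble at 48 h.

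Several large gene groups gave no call with edgeR. DNA replication genes were called in 0 of 49 cases (8 with an unadjusted p under 0.05, and 0 called with DESeq2 or limma). Their median was 0.05, with 42 of 49 above 0, against 52.4% of all genes. Without scramble libraries 4 and 5 at 48 h, 8 were called higher and the median was 0.09. Without libraries 1, 2 and 3, 0 were called and the median was 0.002. Ribosome biogenesis genes and Myc were 1 higher and 0 lower of 39, with a median of 0.08, and this count rested on the same libraries, with 0 called without libraries 1, 2 and 3 and 16 higher without 4 and 5. Mitosis genes were called in 0 of 55 cases (4 unadjusted; 1 with DESeq2, 0 with limma), ribosomal proteins in 0 of 79 (4 unadjusted; 0 with either), and nuclear-encoded respiratory chain genes in 0 of 70 (3 unadjusted; 0 with either). Interferon-stimulated genes were called in 0 of 70 cases (13 unadjusted; 1 with DESeq2 and 1 with limma), although 69 of 70 had a negative difference and the median was −0.56. Their summed level was 3241, 5684, 3219, 3057 and 3644 CPM with Kdm5c siRNA at 24 h, against 2492, 3089, 2850, 3705 and 4261 CPM in scramble, and 4468, 4766, 4178, 4105 and 3591 CPM with Kdm5c siRNA at 48 h, against 4419, 3864, 4486, 5548 and 4967 CPM in scramble. Kdm5c siRNA library 2 at 24 h was the highest of all 20, and the groups overlapped at both times. Without that library the median was −0.23, with 66 of 70 genes negative and 3 with an unadjusted p under 0.05. Without scramble library 5 at 24 h it was −0.77, with 69 negative and 55 unadjusted. The other fits that left out 1 library gave medians between these values.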

How the data were processed

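The samples were strand-specific mRNA libraries of 3T3-L1 cells, made with the NuGEN Universal plus kit per the labels' protocols. STAR 2.7.2a, edgeR 3.26.8 and GRCm38 are named in the submitters' processing notes, with no role given. No source used here names the read counter or the annotation. The authors deposited CPM for 55573 genes, of which 100.0% of nonzero values were whole reads within 0.05, and counts for 12016 genes, all genes reaching 1 CPM in 20 or more libraries; the deposited counts equalled the recovered reads in 100.0% of values. They held 99.76 to 99.8% of each library of the contrast. All 12016 identifiers were in GENCODE M21, the source of symbols and coordinates.

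From the counts, edgeR 4.0.16 (R 4.3.3; robust quasi-likelihood fit, TMM scaling, full library totals) was fitted with 6 group means over the 30 libraries, leaving 24 residual degrees of freedom; the 10 libraries at 72 h enter the shared estimate of spread. The common biological coefficient of variation was 0.0367. Two-sided p-values were adjusted over all genes by the Benjamini-Hochberg method, and a call needs an adjusted p under 0.05. On simulated counts of 12016 genes, 200 of them changed, the fit recovered 59.1% of changes of 0.25 log2, 86.6% of 0.5 and 97% of 1. Among the genes left unchanged there were 6 false calls. Whether these shares and false calls hold for libraries that spread as unevenly as scramble at 48 h was not tested. Run on the reads recovered from the CPM table, with 15135 genes, the count test called 400 genes. Gene groups, the classes, and the genes and lists named were chosen with earlier results of these data known.

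Genes were named as the 4 with the largest difference in each direction of the classes grew, appeared and faded and 2 in each direction of turned, at a mean of at least 2 CPM and without predicted models, pseudogenes or small RNAs, plus up to 3 called members per list with the smallest p. Further genes were chosen after their values were seen: Ghr, Bcl6, Stat5b, Acta2, the pentose phosphate enzymes, Prdx6, Srxn1 and Hmox1. Promoters came from RefSeq (GRCm38.p6), searched on both strands and at every start listed for a gene, with chromosome 18 left out. Alternatives were other scalings (median of ratios, upper quartile), DESeq2 1.42.0, limma 3.58.1 on log2(CPM + 0.5) and log2(CPM + 2), other filters, only the 20 libraries, a replicate block, and each library left out in turn.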

Additional observations from a re-analysis of the deposited data

Results flagged for a closer look

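In 4 of 116 groups of 5 libraries looked at for the genes named by class, 1 library lay far from the others by the gap to its nearest neighbour; chance gives about 1 in 20. These were a Kdm5c value of 23.3 CPM with Kdm5c siRNA at 24 h, the lowest of its group, and a Creb5 value of 2.63 CPM in scramble at 24 h, also the lowest. The others were a Cd53 value of 6.26 CPM, the highest with Kdm5c siRNA at 48 h, and a Cdc42bpg value of 6.18 CPM, the lowest with Kdm5c siRNA at 48 h.

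The siRNA effect differed between the times, by the test of the difference itself, for 263 genes with a higher and 172 with a lower effect at 48 h than at 24 h. Among genes called in opposite directions at the 2 times, the differences were 0.61 for Slco4a1, 0.58 for Cdc42bpg, −0.47 for Peg10 and −0.33 for F3.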

How the results depend on the processing

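Each of the 28 genes named by class kept its direction in every alternative that tested it. Calls higher and lower were 259 and 182 with median-of-ratios scaling, 235 and 193 with upper-quartile scaling, 306 and 239 with DESeq2, 264 and 162 with the replicate block, and 238 and 162 with recovered reads. The labels' numbers do not pair the libraries: same-numbered ones correlated at −0.09 to 0.21 at 24 h and −0.23 to 0.14 at 48 h, and 1 of 5 at each time correlated best with its own number. Kdm5c siRNA and scramble libraries of different numbers correlated at −0.40 to 0.45 at 24 h and −0.17 to 0.22 at 48 h. What such libraries share was not tested. Leaving out 1 library gave 196 to 326 higher and 100 to 232 lower calls, with 71 to 123 grew, 170 to 329 appeared, 36 to 75 faded and 10 to 22 turned. Lower calls moved by over 1.5 times without scramble library 1 (111) or 3 (109), or Kdm5c siRNA library 1 (100) or 5 (107), all at 48 h. Without scramble libraries 1, 2 and 3 at 48 h there were 138 higher and 52 lower calls, with 52 grew, 101 appeared, 31 faded and 6 turned. Without 4 and 5 there were 517 and 356, with 177, 524, 129 and 32. With single-time calls at an adjusted p under 0.01, 2 genes turned. The causes were not tested. Depth limits low genes: 23 of 1842 genes under 5 CPM were called, and 140 of 2357 over 100 CPM, with a median SE of 0.19 and 0.04 log2.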
